A study of Mus musculus with 9 samples.

Results

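AMPA receptors, the channels that carry most fast excitatory transmission in the cortex, depend on a set of proteins that assemble them, carry them and hold them at the synapse. The transcripts of 10 such proteins, Frrs1l, Cpt1c, Grip1, Grip2, Gripap1, Pick1, Nsf, Syndig1, Gsg1l and Shisa7, were taken by symbol from the 55335 gene rows of a count table of mouse prelimbic cortex. All 10 were found, and all 10 were among the 21765 genes with enough counts to be tested. RNA was collected on day 14 after surgery from 3 groups of 3 mice. The sham group had sham surgery and saline. The injured saline group had spared nerve injury (SNI), a surgical model of neuropathic pain, and saline. The R-HNK group had the same injury and 10 mg/kg of (2R,6R)-hydroxynorketamine, a metabolite of ketamine. Strain, sex, age and the route and time of dosing are not given in the sources used here, and there was no group of uninjured mice with R-HNK.

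AMPA receptors are tetramers of the subunits GluA1 to GluA4. They are put together in the endoplasmic reticulum, where Frrs1l and Cpt1c act, and then travel along dendrites. At the synapse and in endosomes they are held, taken in or returned through proteins that bind the subunits' intracellular tails, among them Grip1, Grip2, Pick1 and Nsf, while transmembrane partners such as Gsg1l and Shisa7 set how the channel opens. The series title concerns the place of AMPA receptors at the synapse. The libraries measure transcripts, which do not show where a receptor is.

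None of the 10 transcripts passed the test in any comparison of the 3 groups. The lowest adjusted p was 0.191, for Grip1, a scaffold that binds receptor tails, which averaged 25.5 CPM (counts per 1000000 counts of the scaled library) ± 3.41 (SD, n = 3) in injured saline mice and 31.9 ± 2.67 (SD, n = 3) in sham mice (edgeR quasi-likelihood test, Benjamini-Hochberg adjustment over all tested genes). With all 9 libraries, the 95% interval of each of the 10 differences lay within 1.5-fold in either direction in all 3 pairwise comparisons. This bounds each difference in that fit alone and does not show that the groups were alike. In other settings the Grip1 difference between injured saline and sham mice ran to -0.45 (log2 fold change), with 1 sham mouse left, and no interval is given there. A gene passed when its adjusted p was under 0.05, whatever its fold change.

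The 9 libraries held 53624337 to 73586375 counts, and the members had from 1333 counts (Grip1) to 66034 counts (Nsf) in a library. Markers of cortical excitatory neurons were present in every library, with Slc17a7, the vesicular glutamate transporter of these cells, at 1477 to 2089 CPM. In 4 libraries (replicates 2 and 3 of sham, replicates 1 and 3 of R-HNK) Drd2, a dopamine receptor of striatal neurons, was at 17.5 to 44.0 CPM, against 1.23 to 1.72 CPM in the other 5. The 12 striatal markers together summed to 456 to 1787 CPM in sham, 415 to 474 CPM in injured saline and 426 to 1216 CPM in R-HNK libraries. No injured saline library was among these 4, so member differences that turned or moved by more than their SE under the striatal covariate, or among the other 5 libraries, are given with that value. With those 5 libraries, 1 sham mouse (replicate 1) and 1 R-HNK mouse (replicate 2) remain. In bulk tissue, fewer cells of a type and less RNA per cell cannot be told apart.

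Per kilobase of exon, the members covered a wide range of levels. Nsf, the ATPase that takes apart spent SNARE complexes so that membrane fusion can go on, had the highest mean, 106 CPM per kb ± 6.38 (SD, n = 9 libraries), followed by Frrs1l at 60.0 ± 6.99 CPM per kb. Shisa7 (31.3 ± 2.35) and Gsg1l (27.9 ± 2.25) came next in CPM per kb, and their ranges over the libraries overlapped. Cpt1c (18.9 ± 1.15) and Gripap1 (17.5 ± 0.763) also overlapped, and were followed by Syndig1 (12.7 ± 1.55) and Pick1 (8.12 ± 0.524). Grip2 (4.25 ± 0.654) and Grip1 (3.49 ± 0.492) were lowest, with overlapping ranges. Divided by the longest annotated transcript in place of all annotated exons, 5 of the 10 kept their place. By mean log2 CPM, not divided by length, Nsf, at the 99.5 percentile of tested genes, and Grip1, at the 68.2 percentile, marked the ends of the range.

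**Figure D1:**
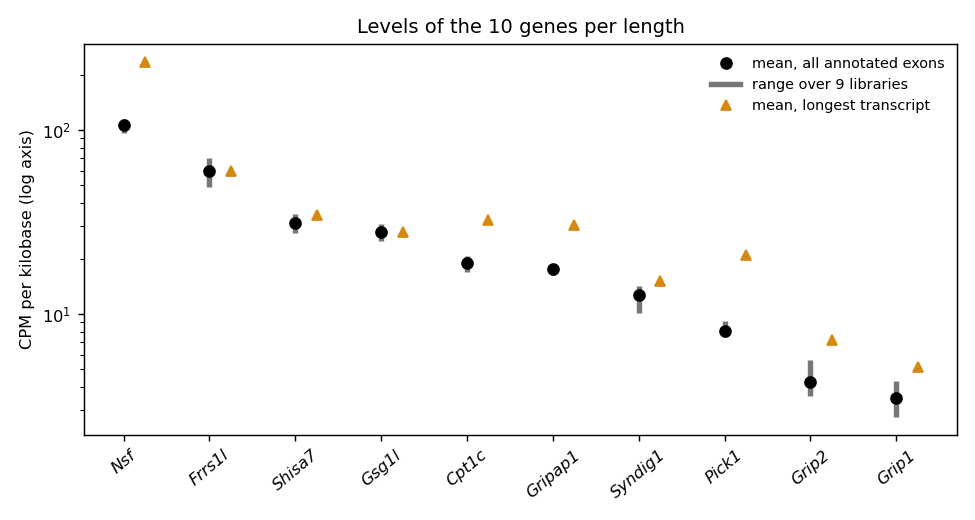
Level of each of the 10 genes in CPM per kilobase (log axis), with the mean over 9 libraries by all annotated exons (circle), the range over those libraries (grey line) and the mean by the longest annotated transcript (triangle). Nsf had the highest mean at 106 CPM per kb and Grip1 the lowest at 3.49 CPM per kb by all exons.

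Among the assembly proteins, Frrs1l is an endoplasmic reticulum protein needed early in the making of the receptor, encoded on the minus strand at chr4:56957173-56990391 (GRCm38, GENCODE M21). In the order of replicates 1 to 3, as for every gene here, its level was 446, 384 and 349 CPM in sham, against 424, 429 and 478 CPM in injured saline and 390.1, 447 and 335 CPM in R-HNK mice. The groups overlapped in each comparison. The 4 lowest values came from the 4 libraries with Drd2 over 10 CPM. The fitted difference in Frrs1l was 0.17 ± 0.11 (log2 fold change ± SE, adjusted p = 0.463) for injured saline against sham and -0.18 ± 0.11 (adjusted p = 0.716) for R-HNK against injured saline, in the edgeR test. With the mean log2 level of the striatal markers as a covariate these became -0.06 and -0.03 (log2). Among only the 5 libraries under 10 CPM of Drd2 they were 0.00 and 0.01, so neither direction held without those libraries. R-HNK and sham mice differed in Frrs1l by -0.01 ± 0.11 (log2), and by 0.00 among those 5.

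Cpt1c, a carnitine palmitoyltransferase relative of neuronal endoplasmic reticulum that binds AMPA receptors there, lies on the minus strand at chr7:44959372-44974851. It was at 108, 101 and 105 CPM in sham, against 113, 107 and 95.2 CPM in injured saline and 115.5, 99.7 and 107 CPM in R-HNK mice. No group stood apart. The Cpt1c group means were 104.9 ± 3.73, 105.1 ± 9.06 and 107.6 ± 7.90 CPM (SD, n = 3 each). Its log2 fold change was 0.00 ± 0.08 for injured saline against sham, with a 95% interval of -0.17 to 0.17, and 0.03 ± 0.08 for R-HNK against injured saline, with an interval of -0.14 to 0.20. Among the 5 libraries under 10 CPM of Drd2 the Cpt1c differences were -0.04 for injured saline against sham, -0.08 for R-HNK against injured saline and -0.12 for R-HNK against sham. Its exons share 6.53% of their bases with 6530437J22Rik on the opposite strand, which had 0 to 13 counts a library.

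Grip1, a protein of many PDZ domains that binds the tails of GluA2 and GluA3 and links them to kinesin, lies on the plus strand at chr10:119453830-120087261. It was at 35.0, 30.2 and 30.5 CPM in sham, against 25.4, 22.2 and 29.0 CPM in injured saline and 30.2, 26.7 and 23.8 CPM in R-HNK mice. Every injured saline value was below every sham value, and so was each R-HNK value, although R-HNK replicate 1 and sham replicate 2 were both at 30.2 CPM when rounded. The log2 fold change was -0.32 ± 0.12 for injured saline against sham (95% interval -0.57 to -0.07, adjusted p = 0.191 in edgeR) and -0.25 ± 0.12 for R-HNK against sham (adjusted p = 1). For R-HNK against injured saline it was 0.07 ± 0.12, with overlapping groups. Sham replicate 1 had the highest Grip1 value, and without it the difference from sham in injured saline mice was -0.24 (log2). With the striatal covariate it was -0.41, and among the 5 libraries under 10 CPM of Drd2 -0.45. R-HNK and sham mice differed by -0.39 among those 5. Sham replicate 1, with its high Grip1 value, is the only sham mouse among those 5.

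Grip2, a close relative of Grip1 with the same kind of domains, on the minus strand at chr6:91761509-91827250, was the member that varied most over the libraries (coefficient of variation 15.4%). It was at 52.5, 38.1 and 34.2 CPM in sham, against 45.4, 36.4 and 41.0 CPM in injured saline and 33.4, 41.6 and 35.8 CPM in R-HNK mice. All groups overlapped, and sham replicate 1 was far above the other sham mice. The difference for injured saline against sham was -0.02 ± 0.15 (log2 fold change ± SE). This value turned with the libraries used, from 0.19 without sham replicate 1 to -0.31 with the striatal covariate and -0.35 among the libraries under 10 CPM of Drd2, and none of these passed the test. For R-HNK the Grip2 difference was -0.15 ± 0.15 from injured saline mice, which turned to 0.07 with the covariate and 0.02 among the libraries under 10 CPM of Drd2. From sham mice it was -0.17 ± 0.15, with -0.33 among those libraries and 0.04 without sham replicate 1. Sham replicate 1, with its high Grip2 value, is the only sham mouse among those libraries.

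Gripap1 encodes GRASP-1, a neuronal protein that binds Grip1 and acts in recycling endosomes, on the plus strand at chrX:7789765-7820567. It varied least of the 10 over the libraries, with a coefficient of variation of 4.36%. Its values were 100.2, 94.7 and 98.7 CPM in sham, against 93.9, 101 and 89.6 CPM in injured saline and 97.2, 91.1 and 99.8 CPM in R-HNK mice. The groups overlapped in each comparison. The Gripap1 log2 fold change was -0.04 ± 0.07 for injured saline against sham, 0.02 ± 0.07 for R-HNK against injured saline and -0.03 ± 0.07 for R-HNK against sham. Among the libraries under 10 CPM of Drd2 the 2 differences with R-HNK mice were -0.06 and -0.14.

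Pick1, which holds a PDZ domain for the tails of GluA2 and GluA3 and a BAR domain for curved membrane, and which acts in the uptake of receptors, lies on the plus strand at chr15:79229173-79249484. It was at 53.5, 51.4 and 49.3 CPM in sham, against 59.9, 52.0 and 49.2 CPM in injured saline and 56.0, 55.6 and 53.4 CPM in R-HNK mice. The R-HNK values lay close together and inside the range of the injured saline mice. The log2 fold change of Pick1 was 0.06 ± 0.08 for injured saline against sham and 0.04 ± 0.08 for R-HNK against injured saline. Its exons share 18.6% of their bases with Gm49486 on the same strand, which had 19 to 73 counts a library, so reads from the shared bases could not be told apart.

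Nsf, on the minus strand at chr11:103821782-103954056, also binds the tail of GluA2 and keeps receptors at the membrane. It was at 887, 838 and 819 CPM in sham, against 923, 922 and 964 CPM in injured saline and 892, 912 and 806 CPM in R-HNK mice. The 3 injured saline mice had the 3 highest values of the 9. The differences were small: 0.14 ± 0.07 (log2 fold change ± SE, adjusted p = 0.312) for injured saline against sham, -0.11 ± 0.07 (adjusted p = 0.732) for R-HNK against injured saline, and 0.04 ± 0.07 for R-HNK against sham, all in edgeR. With the striatal covariate the Nsf values were 0.06 and -0.05 for the 2 comparisons with injured saline mice. Nsf had the narrowest intervals of the 10, reaching 0.15 (log2) to either side.

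Syndig1, a transmembrane protein of excitatory synapses that associates with AMPA receptors, lies on the plus strand at chr2:149829211-150004392. It was at 33.5, 32.1 and 29.1 CPM in sham, against 35.0, 34.9 and 34.5 CPM in injured saline and 26.1, 32.3 and 24.9 CPM in R-HNK mice. The injured saline mice stood above both other groups and were close together, with a mean of 34.8 ± 0.300 CPM against 27.8 ± 4.01 CPM in R-HNK mice (SD, n = 3 each). The log2 fold change for R-HNK against injured saline was -0.33 ± 0.10 (95% interval -0.54 to -0.11), the member difference with the smallest unadjusted p, yet its adjusted p was 0.467 in edgeR. For injured saline against sham it was 0.14 ± 0.10, turning to -0.04 with the striatal covariate. For R-HNK against sham it was -0.18 ± 0.10, with -0.24 under the covariate, -0.05 among the libraries under 10 CPM of Drd2 and -0.30 without R-HNK replicate 2. The 2 lowest R-HNK values came from libraries with Drd2 over 10 CPM. With the striatal covariate the difference between R-HNK and injured saline mice was -0.21, and among the libraries under 10 CPM of Drd2 it was -0.11. Without R-HNK replicate 2 it was -0.45 (adjusted p = 0.116). The exons of Syndig1 share 11.8% of their bases with C530025M09Rik on the opposite strand, which had 25 to 152 counts a library. The sources used here do not say whether reads were counted by strand.

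Gsg1l, a relative of the claudins that joins the receptor as an auxiliary subunit, lies on the minus strand at chr7:125878420-126082411. It was at 121, 104 and 105 CPM in sham, against 118, 97.7 and 98.1 CPM in injured saline and 116, 109 and 117 CPM in R-HNK mice. All 3 groups overlapped. Its log2 fold change was -0.07 ± 0.09 for injured saline against sham and 0.13 ± 0.09 for R-HNK against injured saline (adjusted p = 0.757 in edgeR). The first of these was -0.21 among the libraries under 10 CPM of Drd2 and 0.01 without sham replicate 1. R-HNK and sham mice differed by 0.05 ± 0.09, and by -0.15 among the libraries under 10 CPM of Drd2.

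Shisa7, a transmembrane auxiliary protein of AMPA receptors that also binds GABA-A receptors, lies on the minus strand at chr7:4825552-4844696. It was at 209, 210.3 and 219.8 CPM in sham, against 204, 183 and 191 CPM in injured saline and 222, 197 and 231 CPM in R-HNK mice. The injured saline values lay below every sham value and overlapped with those of R-HNK mice. The log2 fold change was -0.14 ± 0.07 for injured saline against sham (adjusted p = 0.345) and 0.17 ± 0.07 for R-HNK against injured saline (95% interval 0.01 to 0.33, adjusted p = 0.643), both in edgeR. With the striatal covariate these were -0.05 and 0.10, and among the libraries under 10 CPM of Drd2 they were -0.11 and 0.03. R-HNK and sham mice differed by 0.02 ± 0.07, and by -0.09 among those libraries.

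**Figure D2:**
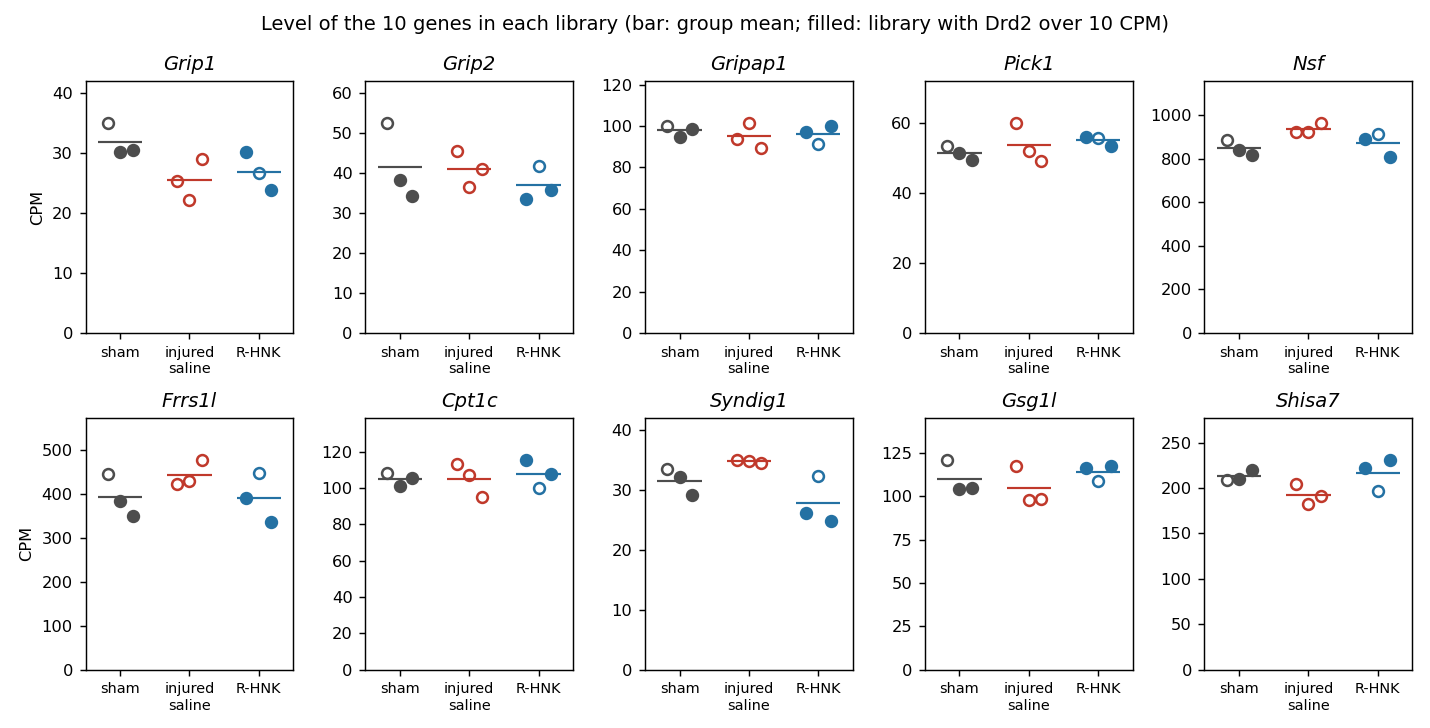
Level of each of the 10 genes in CPM in each library, by group, with the group mean as a bar and filled points for the 4 libraries with Drd2 over 10 CPM. The injured saline mice lie below the sham mice in Grip1 and Shisa7 and above them in Nsf and Syndig1.

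The counts of members were read against all 21765 tested genes. For injured saline against sham, 0 of the 10 passed, where 1.07% of all tested genes did. Without adjustment, 1 member (Grip1, lower) had p under 0.05 in edgeR, with 16.6% of all tested genes. By DESeq2 it was 2 members and 17.5% of all tested genes, and by limma-voom 4 members and 22.5%. Groups did not overlap for 4 members, with Grip1 and Shisa7 lower and Nsf and Syndig1 higher in injured saline mice, against 21.7% of all tested genes. The 10 fold changes ran from -0.32 to 0.17 with a median of -0.01 (log2), beside a median of -0.02 over all tested genes, and 5 were positive and 5 negative.

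For R-HNK against injured saline, 0 of the 10 passed and 0.119% of all tested genes did. Syndig1 and Shisa7 had an unadjusted p under 0.05, 2 members in edgeR, in DESeq2 and in limma-voom, against 7.47%, 8.43% and 13.4% of all tested genes in these tools. Nsf and Syndig1, both lower with R-HNK, were the 2 members whose groups did not overlap, where 13.7% of all tested genes had groups apart. The median member difference was 0.02 (log2), beside 0.01 over all tested genes. For R-HNK against sham, 0 of the 10 passed, with 0.00459% of all tested genes, a single gene. No member had an unadjusted p under 0.05 in edgeR or DESeq2 and 1 did in limma-voom, against 3.53%, 3.94% and 7.45% of all tested genes, and Grip1 alone had groups apart, against 8.85%. For any difference among the 3 groups, 0 of the 10 passed and 0.381% of all tested genes did. Without adjustment 2 members, Syndig1 and Grip1, had p under 0.05 in edgeR and in DESeq2, and 4 in limma-voom, against 10.9%, 12.7% and 17.3% of all tested genes. Their adjusted p in edgeR was 0.348 and 0.425. Under the striatal covariate 2 members had an unadjusted p under 0.05 for injured saline against sham, beside 8.1% of all tested genes. For R-HNK it was 1 against injured saline and 3 against sham (Grip1, Grip2 and Syndig1, all lower), beside 4.77% and 4.22%. For any difference it was 3, beside 5.59%, and 0 members passed. These comparisons share libraries and are not independent of each other.

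**Figure D3:**
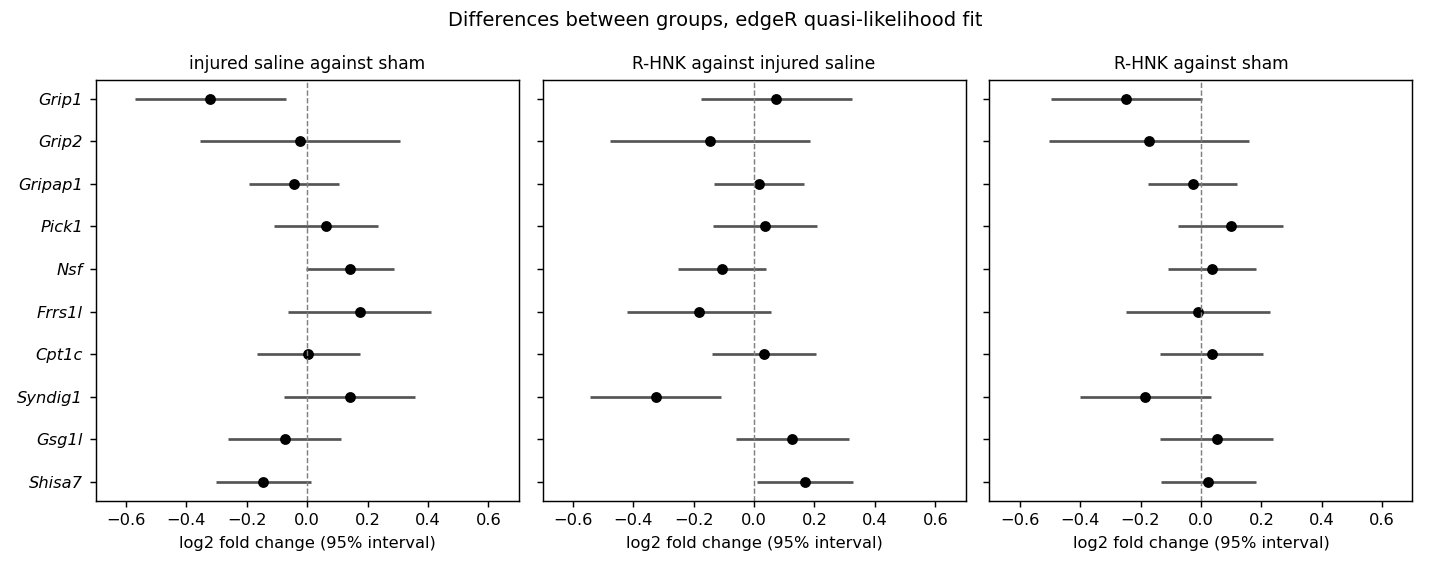
Log2 fold change of each of the 10 genes with its 95% interval in 3 comparisons of the edgeR fit to all 9 libraries. The intervals of Grip1 for injured saline against sham and of Syndig1 and Shisa7 for R-HNK against injured saline do not reach 0, and no adjusted p is under 0.05.

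The intervals show what the 9 libraries could and could not resolve. Across the 10 members they reached from 0.15 (Nsf) to 0.33 (Grip2) to either side on the log2 scale. In percent of the reference group, the outermost bounds were -32.7% and 33.0% for injured saline against sham, -31.3% and 25.5% for R-HNK against injured saline, and -29.4% and 20.7% for R-HNK against sham. Within groups the members' biological coefficient of variation ran from 7.08% to 13.7%. edgeR draws this value towards that of genes of similar level. Its median was 8.60% over the 6916 tested genes at or above the level of the lowest member, and 5 members were below that median.

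The members divided in where their values lay in the 4 libraries with Drd2 over 10 CPM. No injured saline library is among these, so Drd2 level and group cannot be fully told apart. Frrs1l and Syndig1 each had their 4 lowest values in the 4 libraries with Drd2 over 10 CPM, at 335 to 390.1 CPM against 424 to 478 CPM for Frrs1l and 24.9 to 32.1 CPM against 32.3 to 35.0 CPM for Syndig1. Shisa7 had its 4 highest values there, at 210.3 to 231 CPM against 183 to 209 CPM. Within sham, Shisa7 was at 209 CPM in the library under that Drd2 level, against 210.3 and 219.8 CPM. Within R-HNK it was at 197 CPM, against 222 and 231 CPM. The other 7 members overlapped between the 4 and the 5 libraries, Nsf with 806 to 892 CPM against 887 to 964 CPM. Over all tested genes, 4.26% were lowest in those 4 libraries, 5.12% highest and 90.6% overlapped. Markers of cortical excitatory neurons summed to 5723 to 7455 CPM in sham, 7185 to 7876 CPM in injured saline and 6560 to 7074 CPM in R-HNK libraries, and those of oligodendrocytes to 3291 to 6901, 3293 to 4664 and 3434 to 6666 CPM. Other lists were lower in every injured saline library than in any sham library: interneurons (877 to 918 against 957 to 1203 CPM), astrocytes (831 to 944 against 1013 to 1203 CPM) and meningeal fibroblasts (23.2 to 28.0 against 37.4 to 58.2 CPM). In R-HNK libraries these summed to 896 to 1015, 929 to 1106 and 31.6 to 45.9 CPM. The part of these cell types in the member differences was not tested.

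**Figure D4:**
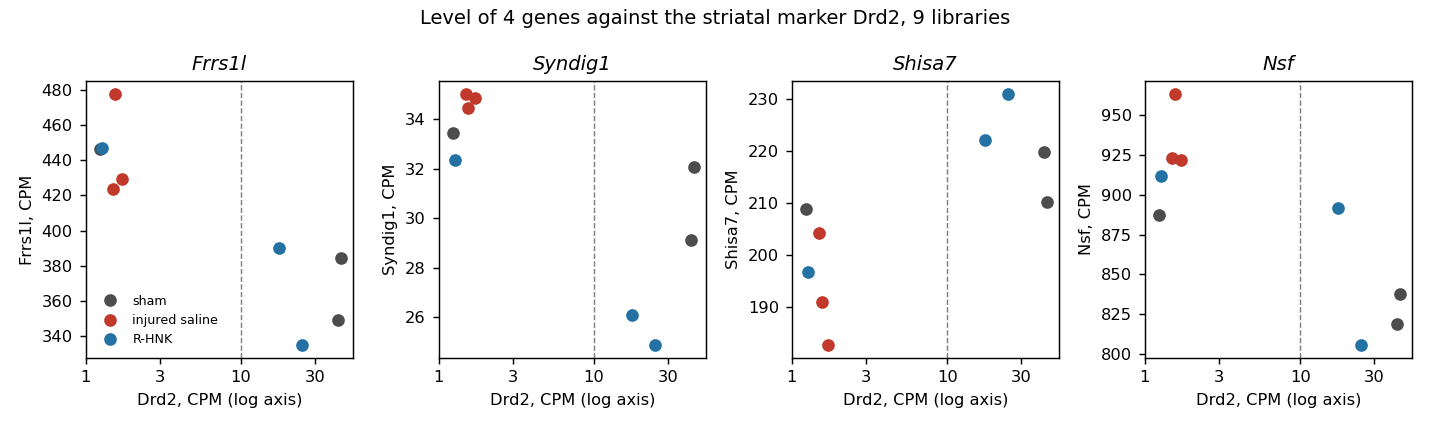
Level of Frrs1l, Syndig1, Shisa7 and Nsf in CPM against Drd2 in CPM (log axis) in 9 libraries, coloured by group, with a dashed line at 10 CPM of Drd2. Right of the line, Frrs1l and Syndig1 lie below all other libraries and Shisa7 above them, while Nsf overlaps.

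The 250 bases before the RefSeq start site (GRCm38.p6) are shown for Frrs1l and Shisa7. In the 4 libraries with Drd2 over 10 CPM, Frrs1l had its lowest values and Shisa7 its highest. Capitals mark a match to TGACG, the core of the cAMP response element, or to the GC box GGGCGG, on either strand.
Frrs1l (chr4:56990392-56990641, minus strand): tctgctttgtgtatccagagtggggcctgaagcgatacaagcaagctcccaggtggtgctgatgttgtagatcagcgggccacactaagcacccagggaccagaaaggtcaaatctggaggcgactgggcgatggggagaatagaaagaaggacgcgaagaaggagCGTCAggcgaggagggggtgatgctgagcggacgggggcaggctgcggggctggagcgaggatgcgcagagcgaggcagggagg
Shisa7 (chr7:4844697-4844946, minus strand): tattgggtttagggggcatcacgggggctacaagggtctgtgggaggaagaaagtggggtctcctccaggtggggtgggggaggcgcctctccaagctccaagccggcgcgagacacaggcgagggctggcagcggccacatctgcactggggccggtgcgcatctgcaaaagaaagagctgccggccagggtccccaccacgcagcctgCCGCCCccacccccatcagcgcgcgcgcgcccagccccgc
In Frrs1l the match lies 84 bases before the start site and reads CGTCA, on the other strand. In Shisa7 the GC box match lies 40 bases before the start site, also on the other strand. Of 32536 promoters of this length, 17.9% held TGACG and 33.0% held GGGCGG on either strand. RefSeq promoters matched 9 of the 10 members, 12 promoters in all. The Syndig1 promoter held no match to the 6 motifs searched, which were these 2, TGACGTCA (the full cAMP response element, which contains the core), TGANTCA (AP-1), GCGTGGGCG (Egr, which can overlap the GC box) and TATAAA. The first Grip1 promoter held 2 GC boxes, 206 and 202 bases before its start site. The second Grip1 promoter held TGACG, and a promoter of Cpt1c and of Pick1 held a GC box. Neither motif was therefore particular to the 2 genes shown. These matches describe letters and show no binding.

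The differences of Grip1, Syndig1 and Shisa7 were followed through 18 other settings. These are the differences whose intervals did not reach 0 in the fit to all 9 libraries. The settings reuse those libraries, so counts of settings are not independent support. Grip1 was lower in injured saline than in sham mice in 18 of 18, from -0.45 to -0.23 (log2), with an unadjusted p under 0.05 in 16 and adjusted p from 0.103 to 0.472. Syndig1 was lower in R-HNK than in injured saline mice in 18 of 18, from -0.45 to -0.11, with an unadjusted p under 0.05 in 17 and adjusted p from 0.116 to 1. Shisa7 was higher in R-HNK than in injured saline mice in 18 of 18, from 0.03 to 0.24, with an unadjusted p under 0.05 in 11 and adjusted p from 0.234 to 1. Among the 5 libraries under 10 CPM of Drd2 the differences of Syndig1 (-0.11) and Shisa7 (0.03) were closest to 0. That of Grip1 was furthest from 0 there, at -0.45. The only sham mouse there was replicate 1, which had the highest Grip1 value of the 9 libraries. No setting brought any of the 10 genes past the threshold, DESeq2 and limma-voom included.

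**Figure D5:**
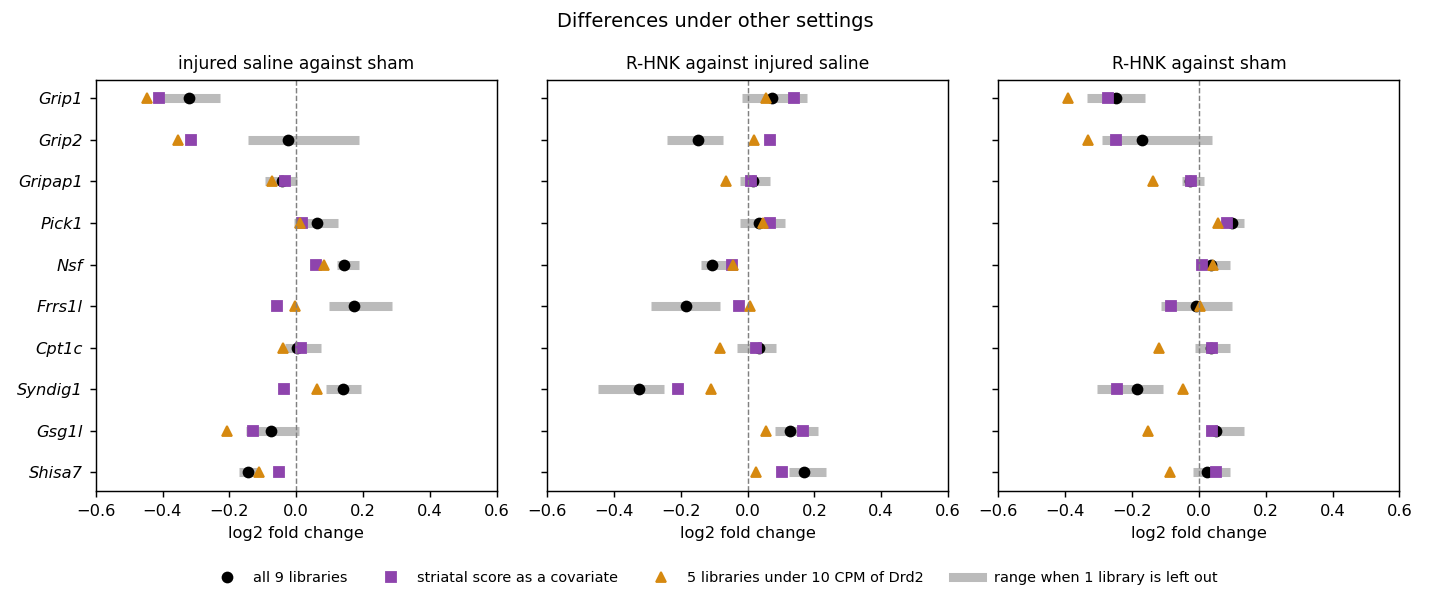
Log2 fold change of each of the 10 genes in 3 comparisons with all 9 libraries (circle), with the striatal score as a covariate (square), among the 5 libraries under 10 CPM of Drd2 (triangle), and the range when 1 library is left out (grey). Grip1 stays left of 0 for injured saline against sham, and Frrs1l moves from 0.17 to -0.06 with the covariate and 0.00 among the 5 libraries.

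Around the members, 73 further genes of the receptor's life cycle were examined in 7 lists, all of them tested. For injured saline against sham, 1 of the 73 passed, lower, beside 1.07% of all tested genes, and 22 (11 higher, 11 lower) had an unadjusted p under 0.05 in edgeR, beside 16.6% of all tested genes. The median of the 73 was 0.05 (log2), with 47 positive, beside 47.6% positive and a median of -0.02 over all tested genes. Under the covariate 4 of the 73 had an unadjusted p under 0.05, beside 8.1% of all tested genes. For R-HNK against injured saline and R-HNK against sham, 0 of the 73 passed, with 5 and 2 at an unadjusted p under 0.05 in edgeR, beside 7.47% and 3.53% of all tested genes. The gene that passed was Cacng5, an auxiliary subunit of the stargazin family. It was at 24.5, 24.0 and 21.6 CPM in sham, against 10.5, 6.30 and 8.73 CPM in injured saline and 12.1, 19.9 and 12.9 CPM in R-HNK mice. The log2 fold change of Cacng5 was -1.46 ± 0.21 (adjusted p = 0.00991) for injured saline against sham and 0.81 ± 0.21 (adjusted p = 0.359) for R-HNK against injured saline in edgeR. For injured saline against sham it was -1.71 (adjusted p = 0.00955) with the striatal covariate. Among the libraries under 10 CPM of Drd2, with 1 sham mouse, it was -1.52. It did not pass without sham replicate 2 (-1.43, adjusted p = 0.0539) or without injured saline replicate 3 (-1.47, adjusted p = 0.0777). DESeq2 also called it for R-HNK against injured saline (0.81, adjusted p = 0.0185). Shisa8 is an auxiliary subunit related to Shisa7 and is named here after its values were seen. For injured saline against sham it passed in edgeR with the covariate (-2.49, adjusted p = 0.0292). With all 9 libraries that difference was -1.72 ± 0.49 (adjusted p = 0.153), and for R-HNK against injured saline it was 1.07 ± 0.49 (adjusted p = 0.683). Among the libraries under 10 CPM of Drd2, with 1 sham and 1 R-HNK mouse, the 2 Shisa8 differences were -2.14 and 1.89.

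Of the 4 pore subunits, 0 passed in any comparison. Gria1 (GluA1) had the smallest p among them for injured saline against sham, at 391 ± 26.2 CPM against 457 ± 46.3 CPM (SD, n = 3 each, adjusted p = 0.25 in edgeR), and for R-HNK against injured saline (443 ± 47.2 CPM, adjusted p = 0.691). Its log2 fold change from sham in injured saline mice was -0.22 ± 0.09, and -0.06 with the striatal covariate. For R-HNK against sham it was Gria2, at -0.09 ± 0.07 (log2). Of the 8 genes of receptor assembly and lipid or palmitoyl enzymes, 0 passed. Abhd12, a lipid hydrolase, came closest in both comparisons with injured saline mice, at 0.16 ± 0.06 (adjusted p = 0.206) against sham and -0.12 ± 0.06 (adjusted p = 0.689) for R-HNK. For R-HNK against sham it was Cpt1b, the muscle relative of Cpt1c, at means of 0.774 and 0.157 CPM.

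Nsf works with SNAP cofactors on SNARE proteins. Of 9 SNAP cofactors and SNARE proteins, 0 passed for injured saline against sham, 8 fold changes were positive and the median was 0.17 (log2), beside 47.6% positive over all tested genes. For R-HNK against injured saline, which shares the injured mice, 8 were negative and the median was -0.12, beside 48.6% negative over all tested genes, again with 0 passing. Under the striatal covariate the medians were 0.04 (7 positive) and -0.04 (7 negative), and among the libraries under 10 CPM of Drd2 0.13 (7 positive) and -0.01 (5 negative). Snap47, a SNARE protein of dendritic exocytosis, had the smallest p in this list in all 3 comparisons, with 0.26 ± 0.08 (adjusted p = 0.116), -0.16 ± 0.08 (adjusted p = 0.681) and 0.10 ± 0.08 (adjusted p = 1). With the covariate the first 2 were 0.13 and -0.07. The medians over all tested genes in the first 2 comparisons were -0.02 and 0.01.

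Of 18 recycling endosome and motor genes, 0 passed. Rab4a, a small GTPase of early endosomes, had the smallest p for injured saline against sham, at 0.22 ± 0.07 (log2, adjusted p = 0.14 in edgeR), and for R-HNK against injured saline, at -0.12 ± 0.07. Ehd1, which acts in return from recycling endosomes, had it for R-HNK against sham, at 0.14 ± 0.08. Of 11 Pick1 partners and clathrin genes, 0 passed. For injured saline against sham, 9 were positive and 2 negative (median 0.11, log2), beside 47.6% positive over all tested genes. For R-HNK against injured saline, which shares the injured mice, 3 were positive and 8 negative (median -0.05), beside 48.6% negative. Under the striatal covariate the medians were 0.05 (8 positive, 3 negative) and -0.01 (4 positive, 7 negative). Prkca, the kinase that Pick1 binds, was at 191 ± 22.9 CPM in injured saline and 245.0 ± 20.8 CPM in sham mice (adjusted p = 0.138 in edgeR). It also had the smallest p for R-HNK against sham, at -0.24 ± 0.11, and Dnm2, a dynamin, had it for R-HNK against injured saline, at 0.17 ± 0.09. Of 11 scaffolds and kinases at the receptor tail, 0 passed. Ephb2, a receptor kinase that binds Grip1 and Pick1, was at 27.6 ± 2.30 CPM in injured saline mice, 20.2 ± 3.16 CPM in sham mice and 20.7 ± 2.73 CPM in R-HNK mice (SD, n = 3 each). Its adjusted p was 0.108 for injured saline against sham and 0.468 for R-HNK against injured saline in edgeR, and its injured saline values lay above both other groups. With the striatal covariate the 2 differences were 0.26 and -0.28 (log2), from 0.46 and -0.41. Akap5, the anchoring protein of kinases at the receptor, had the smallest p in this list for R-HNK against sham, at -0.21 ± 0.09.

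For Syndig1 and Grip1, the members with the smallest p for any difference among the groups, the genes of most similar pattern were sought among 13603 tested genes by Pearson's r of log2 CPM over 9 libraries, given as a description since the points share groups and tissue make-up. Closest to Syndig1 were Foxk2, a forkhead factor (r = 0.95, and 0.96 for deviations from the group means), Mcf2, a guanine exchange factor (0.93 and 0.91), and Rel, a subunit of NF-kB (0.92 and 0.80). Among the genes closest to Grip1 were Sptbn1, a spectrin (0.94 and 0.93), and Heatr5b (0.94 and 0.97).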

How the data were processed

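Bulk RNA of prelimbic cortex was sequenced from 9 mice, on an Illumina NovaSeq per the labels. The submitters' processing notes name HISAT2 2.0.5, featureCounts 1.5.0-p3 and mm10. The deposited table holds expected counts (estimated reads for each gene) as unnormalized whole numbers. Its name gives StringTie instead, and strand and pair settings are not given in the sources used here. Counts were filtered with filterByExpr (21765 genes, 99.96% of counts), scaled by TMM (0.979 to 1.03) and fitted in R 4.3.3 with edgeR 4.0.16 (robust quasi-likelihood, 1 mean per group, Benjamini-Hochberg). SE is the fold change divided by the square root of F. An exact permutation test of 3 against 3 cannot go below 0.1. Alternatives used DESeq2 1.42.0, limma 3.58.1, other scalings and fewer libraries. Loci came from GENCODE M21, promoters from RefSeq. Members, lists and the striatal alternatives were chosen with earlier results of these data known. Striatal alternatives for list genes were added after seeing the data. Named genes were the 10 members, list genes that passed, the smallest p per list and comparison, and, for the 2 members with the smallest p for any difference, the 3 genes of highest r with mean log2 CPM of at least 0. Some genes that these rules take in are not reported here.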

Additional observations from a re-analysis of the deposited data

How the results depend on the processing

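None of the 10 genes passed under any of the 18 alternatives. Of 540 fold changes 500 kept their sign, and 30 moved by more than 1 SE, 17 of them without the libraries over 10 CPM of Drd2, 8 with the striatal covariate, 3 without sham replicate 1 and 2 without R-HNK replicate 2. The 2 other scalings moved no median by over 0.012 (log2).

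The counts over all tested genes moved more, and the cause was not tested. For injured saline against sham, 233 genes passed, and 370 did with no filter, 1185 in DESeq2, 1051 in limma-voom, 83 with the striatal covariate, 86 without the libraries over 10 CPM of Drd2, and from 60 (without injured saline replicate 3) to 1170 (without sham replicate 1) when 1 library was left out. For R-HNK against injured saline, 26 passed, and 140 did in DESeq2, 46 in limma-voom, 53 with those groups alone, and 7 (without injured saline replicate 3) to 56 (without sham replicate 1) with 1 library left out. For R-HNK against sham, 1 passed, and 10 did in DESeq2, 0 in limma-voom, 25 without the libraries over 10 CPM of Drd2, and 1 to 11 (without sham replicate 1) with 1 library left out. For any difference, 83 passed, and 128 did with no filter, 679 in DESeq2, 268 in limma-voom, 38 with the covariate, and 21 (without injured saline replicate 2) to 528 (without sham replicate 1) with 1 library left out. By the longest transcript, 5 members kept their place in the order of levels.

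The replicate block gave 162, 16, 2 and 43 genes in these 4 comparisons and 0 members. Replicate numbers gave no sign of pairing the mice, which does not exclude it. Of 9 same-numbered pairs, 1 correlated above 0.1 (range -0.15 to 0.23), and 3 of 9 libraries correlated best with their own number. Where leaving out the 4 libraries left 1 sham and 1 R-HNK mouse, the spread came from the injured saline mice. Each member had 1333 counts or more in every library. The shares of counting error, number of mice and tissue make-up in the precision were not tested.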
